A study of Mus musculus with 18 samples.

Results

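C-terminal binding proteins (CTBPs) 1 and 2 and the 8 genes of the corepressor complex that is assembled around them were followed as RNA in wildtype and Ctbp1/2 double knockout (dKO) macrophages. The 10 genes were found by their symbols, each on a single line of a table of 18204 genes, and every one of them passed the limit on low values that 16383 genes passed. The cells were J774.1, a mouse macrophage line. The 6 groups of 3 samples were wildtype vehicle, wildtype MTOB, wildtype 4-Cl-HIPP, dKO vehicle, dKO MTOB and dKO 4-Cl-HIPP. MTOB (4-methylthio-2-oxobutanoate) was given at 1.5 mM and 4-Cl-HIPP at 250 µM (3-(4-chlorophenyl)-2-(hydroxyimino) propanoic acid), both as inhibitors of the CTBP dehydrogenase domain, and all cells including the PBS/DMSO vehicle group were lysed after 4 h. The dKO cells descend from single Cas9-edited cells, and according to the methods the picked clones, wildtype or knockout, were checked by sequencing and western blotting. Clone and genotype therefore cannot be told apart. The labels do not say that the 3 samples of a group came from separate cultures, whereas the methods call them biological triplicates, and p-values measure the spread between these samples, which may be technical.

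CTBPs carry no DNA-binding domain. They are brought to genes by transcription factors that hold a short CTBP-binding peptide, and they in turn hold enzymes that remove active histone marks and write repressive ones. KDM1A (LSD1) demethylates lysine 4 of histone H3, RCOR1 and RCOR3 are CoREST scaffolds that tie KDM1A to the deacetylases HDAC1 and HDAC2, EHMT1 (GLP) and EHMT2 (G9a) methylate lysine 9 of histone H3, and WIZ is a zinc finger protein that links EHMT1 and EHMT2 to CTBPs. The question asked of these genes was whether RNA of any partner, or of the remaining CTBP transcripts, stands higher where the CTBPs are lost.

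The study's scheme of the knockout names exon 3 of Ctbp1, with guides on both sides of it, and exon 2 of Ctbp2, and these exons are shown because the genotype is aimed at them. The scheme gives no transcript. The numbers were matched here to the exons of a representative Gencode vM39 transcript of each gene, which may differ from those the study used. The study lists 2 guides for each gene, and the bases of a Ctbp2 guide occur, as their reverse complement, in the Ctbp2 exon 2 shown here. The sequences were read from the GRCm39 genome with Gencode vM39 exons, on the coding strand of each gene, with the bases that differ between the 2 genes at the same place of the exon in capitals. Exon 3 of Ctbp1 is chr5:33418353-33418497 and exon 2 of Ctbp2 is chr7:132600920-132601074, both on the minus strand and both wholly coding.
Ctbp1 exon 3: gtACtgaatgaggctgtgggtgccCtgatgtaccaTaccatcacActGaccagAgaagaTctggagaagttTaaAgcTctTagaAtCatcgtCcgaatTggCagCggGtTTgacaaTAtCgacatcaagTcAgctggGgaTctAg
Ctbp2 exon 3: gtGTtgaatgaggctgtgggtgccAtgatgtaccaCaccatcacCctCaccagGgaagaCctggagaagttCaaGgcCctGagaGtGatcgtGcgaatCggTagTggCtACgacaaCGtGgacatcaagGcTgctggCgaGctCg
Ctbp2 exon 2: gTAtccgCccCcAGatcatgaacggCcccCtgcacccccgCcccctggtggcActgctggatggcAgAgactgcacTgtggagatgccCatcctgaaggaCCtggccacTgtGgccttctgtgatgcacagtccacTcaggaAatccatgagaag
Ctbp1 exon 2: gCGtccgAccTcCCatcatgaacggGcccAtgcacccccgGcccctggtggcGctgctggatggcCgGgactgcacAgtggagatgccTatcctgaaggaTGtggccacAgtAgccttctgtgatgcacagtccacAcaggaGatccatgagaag
Exons 2 to 8 of both genes have the same lengths, and between them 64.4% (exon 8) to 87.1% (exon 2) of bases are identical. The longest identical stretch is 23 bases, and annotated transcripts of Ctbp1 and Ctbp2 share 0 sequences of 31 bases, the length of the words by which Salmon finds a read's candidate transcripts by default.

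The 145 bases of Ctbp1 exon 3 leave a remainder of 1 when divided by 3, and the 155 bases of Ctbp2 exon 2 a remainder of 2. Joining exon 2 of Ctbp1 to exon 4 in the annotated transcript gives a stop after 88 codons, where the whole transcript has 441. The stop stands in exon 4 at the end of this stretch, in capitals.
Ctbp1 chr5:33416617-33416649, minus strand: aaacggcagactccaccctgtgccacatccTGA
Of 31 annotated Ctbp1 transcripts, 18 hold exon 3 whole, 2 hold a part and 11 lack it. Of 20 annotated Ctbp2 transcripts, 6 hold exon 2 whole and 14 lack it. The deposited value of a gene sums over its transcripts, so it does not show whether the exon is present in the RNA that was counted.

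The values are TPM, a transcript's share of all RNA molecules scaled to a common total, in which the authors corrected read estimates for transcript length, so levels of different genes can be set side by side within a sample. In wildtype vehicle cells Ctbp1 was highest of the 10 genes, at 218 ± 18.1 TPM (SD, n = 3), above every sample of the next gene. Ehmt2 followed with 113 ± 1.55 TPM (SD, n = 3), again clear of the gene below it. Hdac2 (97.5 ± 5.21 TPM), Ctbp2 (92.6 ± 4.57 TPM), Hdac1 (89.9 ± 3.51 TPM) and Kdm1a (83.1 ± 5.29 TPM, SD, n = 3 each) formed a middle tier in which each gene overlapped its neighbour. Wiz at 40.7 ± 0.633 TPM and Ehmt1 at 36.6 ± 4.67 TPM (SD, n = 3 each) also overlapped each other. The scaffolds were lowest, with 30.8 ± 1.17 TPM for Rcor1 and 16.1 ± 1.74 TPM for Rcor3 (SD, n = 3 each), which overlapped neither each other nor their neighbours. In GRCm39 with Gencode vM39, Ctbp1 at chr5:33401056-33432483, Ctbp2 at chr7:132589292-132726083, Kdm1a at chr4:136277846-136330106, Rcor3 at chr1:191782846-191822370, Hdac1 at chr4:129409895-129436631, Ehmt1 at chr2:24679940-24809696 and Wiz at chr17:32572090-32608413 lie on the minus strand. On the plus strand lie Rcor1 at chr12:111005769-111082338, Hdac2 at chr10:36850435-36877890 and Ehmt2 at chr17:35117256-35133048. Among all listed genes these means lay between percentiles 61.6 (Rcor3) and 96.2 (Ctbp1).

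**Figure D1:**
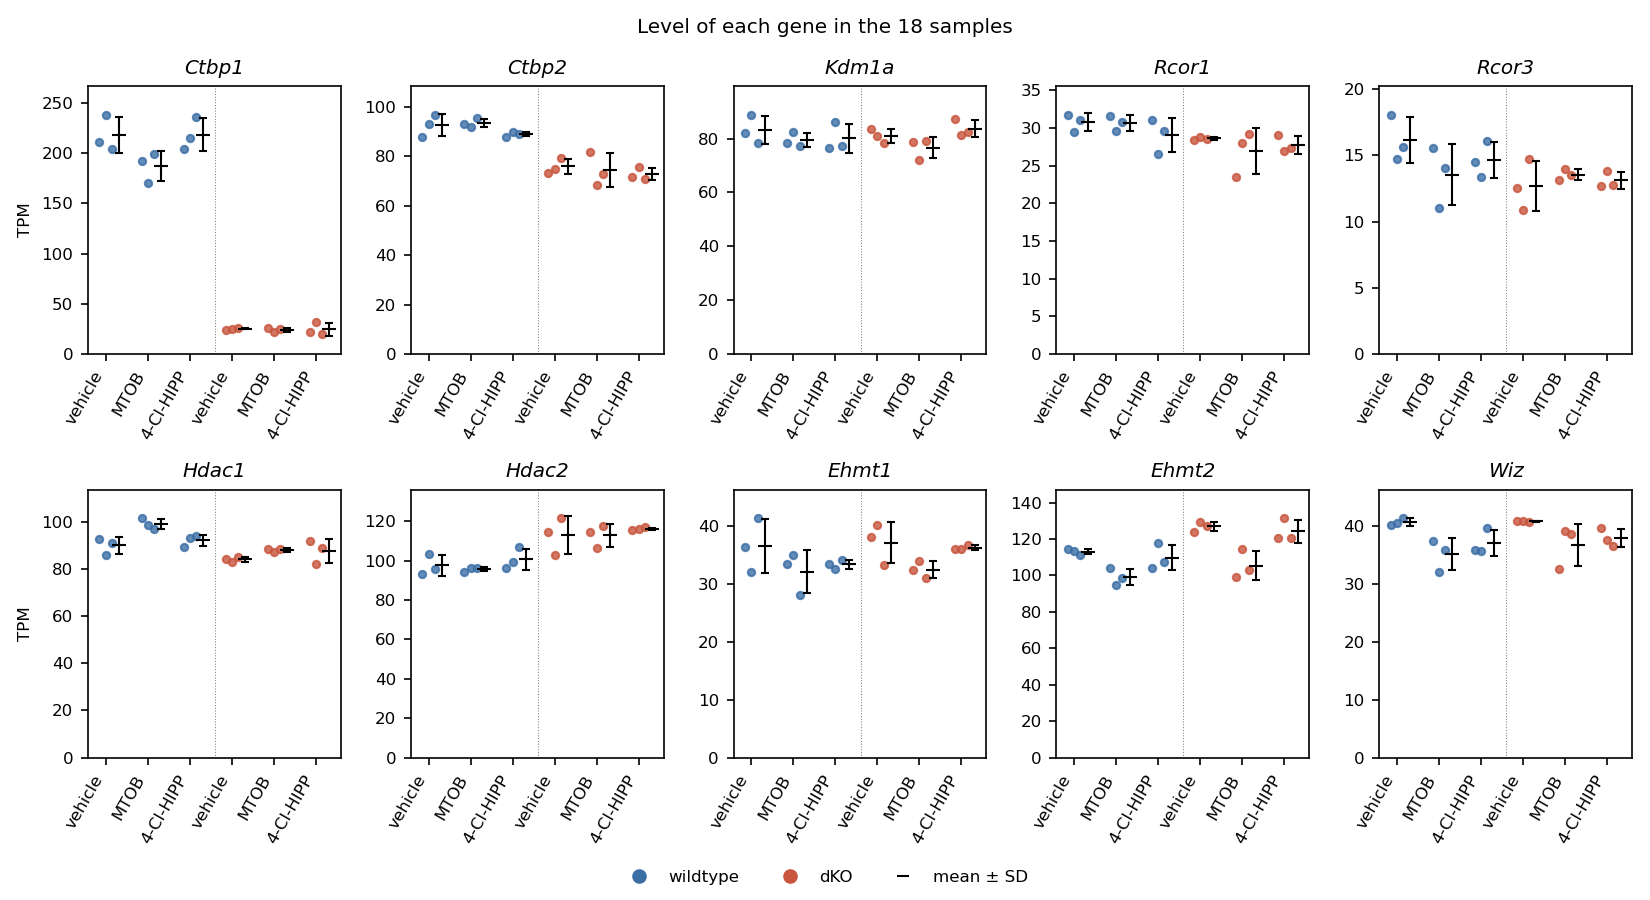
TPM (linear axis from 0) of the 10 genes in each of the 18 samples, with wildtype in blue, dKO in red and the mean ± SD of each group (n = 3) in black beside its points. Ctbp1 falls from 170.1 to 238 TPM in wildtype to 19.7 to 31.5 TPM in dKO samples, Ctbp2 separates the genotypes by a smaller step, and the other 8 genes overlap between genotypes.

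Ctbp1 RNA was lower in every dKO sample. In wildtype cells it stood at 212, 238 and 204 TPM with vehicle, 192, 170.1 and 199 TPM with MTOB, and 204, 216 and 236 TPM with 4-Cl-HIPP. In dKO cells it stood at 24.4, 25.2 and 25.6 TPM with vehicle, 25.8, 22.0 and 25.0 TPM with MTOB, and 22.4, 31.5 and 19.7 TPM with 4-Cl-HIPP. The genotypes did not overlap, and the dKO mean was 11.8% of the wildtype mean. Averaged over treatments, the log2 fold change of dKO over wildtype was -3.03 (SE 0.07, adjusted p = 5.44e-14, limma). The remaining Ctbp1 RNA stood between Rcor1 and Rcor3 in dKO vehicle cells, with 25.1 ± 0.638 TPM against 28.6 ± 0.214 and 12.7 ± 1.92 TPM (SD, n = 3).

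Ctbp2 RNA was largely retained, although the study reports by western blot that both CTBP proteins were lost. It was 87.8, 93.2 and 96.9 TPM with vehicle, 93.0, 92.1 and 95.5 TPM with MTOB and 88.0, 89.7 and 89.0 TPM with 4-Cl-HIPP in wildtype cells. With both CTBP genes edited it was 73.5, 74.9 and 79.4 TPM with vehicle, 81.9, 68.5 and 72.7 TPM with MTOB and 71.7, 75.6 and 71.0 TPM with 4-Cl-HIPP. Every dKO sample lay below every wildtype sample, although the gap was narrow, from 81.9 to 87.8 TPM. The dKO mean was 81.1% of the wildtype mean, with a log2 change of -0.30 (SE 0.03, adjusted p = 6.07e-06, limma) averaged over treatments. It fell by 0.28 under vehicle (adjusted p = 0.0043), by 0.33 under MTOB (adjusted p = 0.0012) and by 0.29 under 4-Cl-HIPP (adjusted p = 0.0041, limma, log2 scale). A fit of the MTOB samples alone gave an adjusted p = 0.066 for the same change. Of the 31-base sequences of Ctbp2, 10.9% occur in other genes, with Fgfr2 sharing most at 0 to 0.385 TPM. No dKO sample had more Ctbp2 RNA than a wildtype sample. Ctbp2 is itself edited in the dKO cells, so a response of Ctbp2 to the loss of Ctbp1 cannot be seen in this design. The balance of RNA between the paralogs turned over. Ctbp2 was at 0.377 to 0.541 of Ctbp1 in the 9 wildtype samples and at 2.40 to 3.61 of it in the 9 dKO samples. Their summed level was 262 to 332 TPM in wildtype and 90.5 to 108 TPM in dKO samples.

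Of the 10 genes, 5 passed an adjusted p-value of 0.05 between genotypes averaged over treatments, against 22.4% of all genes tested and 31.5% of those whose mean normalized count reached 100, as it did for each of the 10. Among these 5 are Ctbp1 and Ctbp2, which are the edited genes, so the calls of the 8 partners are also given apart. Only Ctbp1 also passed a fold change of 1.5, as did 5.2% of all genes. Ctbp1 and Ctbp2 were the 2 of 10 genes whose 9 dKO samples did not overlap the 9 wildtype samples, against 5.26% of genes tested and 6.66% of those whose mean normalized count reached 100. Among the 8 partners, 2 were higher (Hdac2 and Ehmt2, against 13.1% of all genes) and 1 was lower (Hdac1, against 9.27%). The other 5 were not called, so the calls of the partners are near the 31.5% of genes whose mean normalized count reached 100. They do not set the partners apart from such genes. The median log2 fold change of the 8 partners was 0.01, as was that of all genes tested. The share of higher calls over all genes depended on scaling, with 58.6% of called genes higher as deposited, 53.6% after median-ratio scaling and 42.2% after centring each sample on its median. The 5 calls among the 10 genes held under each of the 27 alternative settings.

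**Figure D2:**
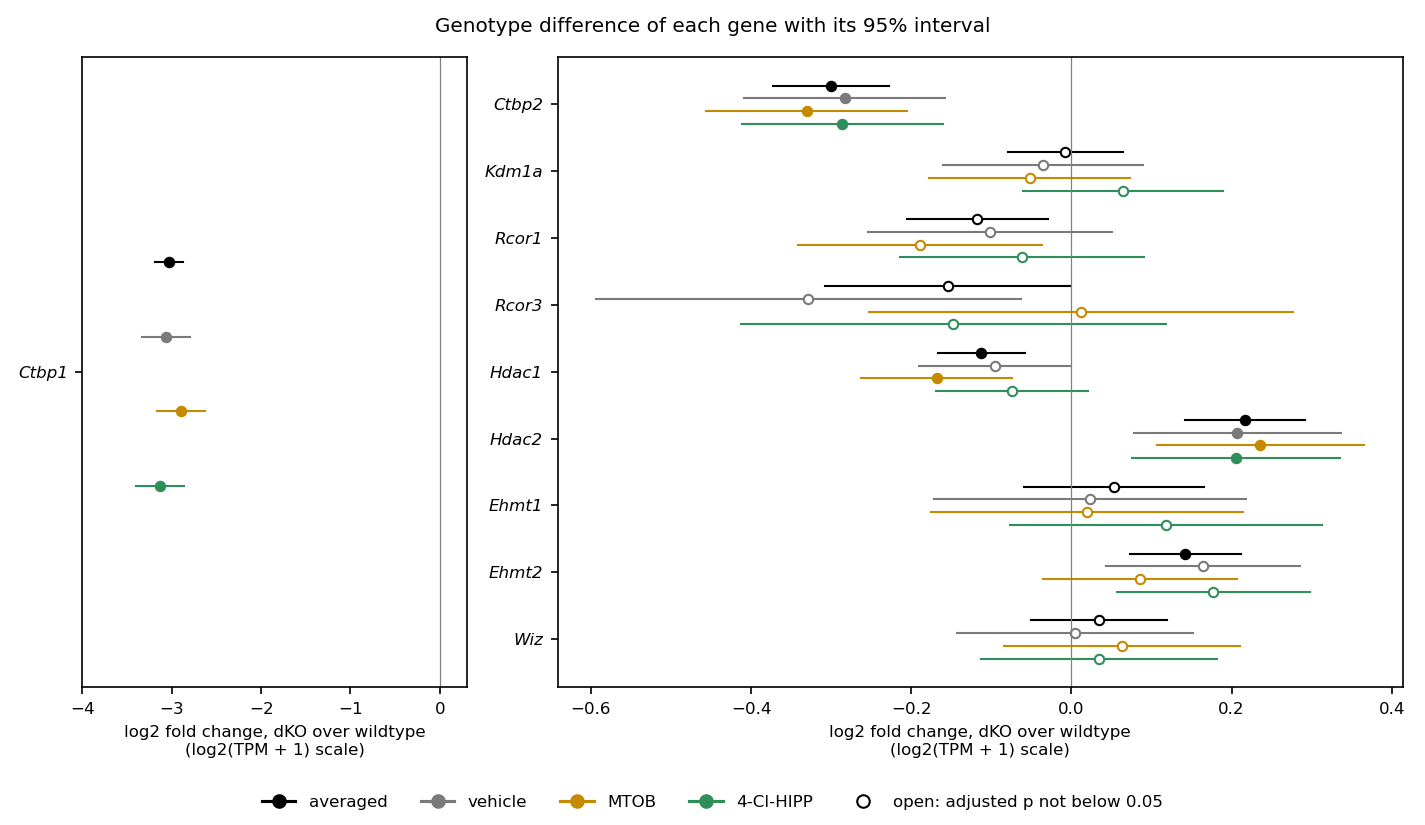
Log2 fold change of dKO over wildtype on the log2(TPM + 1) scale with its 95% interval, averaged over treatments (black) and within vehicle (grey), MTOB (ochre) and 4-Cl-HIPP (green), filled where the adjusted p-value was below 0.05. Ctbp1 has its own axis near -3. Of the other genes called on average, Ctbp2 and Hdac1 lie to the left and Hdac2 and Ehmt2 to the right. The points of the partners lie between -0.33 (Rcor3 under vehicle, open) and 0.24, and some of their intervals reach beyond this range.

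The demethylase Kdm1a did not pass the threshold, and its interval was narrow. Its 9 wildtype samples ran from 76.5 to 88.9 TPM with a median of 78.5 TPM, and its 9 dKO samples from 72.0 to 87.4 TPM with a median of 80.9 TPM. The averaged log2 change was -0.01 (SE 0.03, adjusted p = 0.92, limma), with a 95% interval of -5.37% to 4.58% on the scale of TPM + 1. Part of this value is uncertain, since 9.14% of the 31-base sequences of Kdm1a transcripts occur in other genes, most of them in Luzp1 on the opposite strand, and the libraries did not keep strand. Luzp1 had 32.3 to 43.1 TPM in wildtype and 24.5 to 39.5 TPM in dKO samples.

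The CoREST scaffolds did not pass the threshold either. Rcor1 ran from 26.6 to 31.7 TPM (median 30.8) in wildtype and from 23.4 to 29.2 TPM (median 28.4) in dKO samples, a log2 difference of -0.12 (SE 0.04, adjusted p = 0.054, limma). This call was borderline: the adjusted p-value was between 0.0222 and 0.0498 without wildtype 4-Cl-HIPP replicate 2, dKO MTOB replicate 2, dKO MTOB replicate 3 or dKO 4-Cl-HIPP replicate 1, and 0.017 and 0.0022 under the 2 other scalings. Rcor3 ran from 11.03 to 18.1 TPM (median 14.7) in wildtype and from 10.9 to 14.7 TPM (median 13.1) in dKO samples, a log2 change of -0.15 (SE 0.07, adjusted p = 0.15, limma), which was 0.043 without wildtype MTOB replicate 2 and 0.0471 after median centring. Its change under vehicle (-0.33, adjusted p = 0.12) was at 0.0498 after median centring. Rcor3 had the lowest mean normalized count of the 10 genes, 128, with a counting error of 8.82%, against 2.46% for the 1655 of Ehmt2. Of the 31-base sequences of Rcor1, 23.9% are shared with other genes, nearly all with the gene model Gm48632 on the same strand, which was listed at 0 to 0.204 TPM. The ratio of Rcor3 to Rcor1 overlapped between genotypes, at 0.373 to 0.569 in wildtype and 0.377 to 0.560 in dKO samples.

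The deacetylase pair moved apart. Hdac2 was 93.3, 103 and 95.9 TPM with vehicle, 94.4, 96.0 and 96.1 TPM with MTOB and 96.1, 99.1 and 107 TPM with 4-Cl-HIPP in wildtype cells. The dKO samples had 115, 103 and 121 TPM with vehicle, 115, 106 and 117 TPM with MTOB and 116, 116 and 117 TPM with 4-Cl-HIPP. Of the 9 dKO samples, 7 exceeded every wildtype sample. The mean was 116% of wildtype, with an averaged log2 change of 0.22 (SE 0.04, adjusted p = 0.00024, limma). No 31-base sequence of Hdac2 occurs in another gene.

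Within single treatments Hdac2 passed each time and only just, with a log2 difference of 0.21 under vehicle (adjusted p = 0.0395), 0.24 under MTOB (adjusted p = 0.0183) and 0.21 under 4-Cl-HIPP (adjusted p = 0.0425, limma). The vehicle call was lost without wildtype vehicle replicate 1 or 3, any wildtype MTOB replicate, wildtype 4-Cl-HIPP replicate 2, dKO vehicle replicate 1 or 3 or any dKO 4-Cl-HIPP replicate, with adjusted p-values of 0.0502 to 0.185. Under MTOB it was lost without wildtype MTOB replicate 1 or dKO MTOB replicate 1 or 3, at 0.0533 to 0.0786. Under 4-Cl-HIPP it was lost without wildtype vehicle replicate 3, any wildtype MTOB replicate, wildtype 4-Cl-HIPP replicate 1 or 2, dKO vehicle replicate 1 or any dKO 4-Cl-HIPP replicate, at 0.0536 to 0.163. With only the compared groups fitted the adjusted p-values were 0.194 under vehicle, 0.0514 under MTOB and 0.0608 under 4-Cl-HIPP, and after median centring 0.177, 0.0588 and 0.122. The averaged change held in all 27 alternatives, with a log2 change of 0.17 to 0.24.

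Hdac1 was 92.6, 85.9 and 91.1 TPM with vehicle, 101, 98.6 and 96.9 TPM with MTOB and 89.2, 93.2 and 93.7 TPM with 4-Cl-HIPP in wildtype cells. For dKO cells the values were 84.2, 82.9 and 85.1 TPM with vehicle, 88.6, 87.0 and 88.3 TPM with MTOB and 91.8, 82.0 and 88.7 TPM with 4-Cl-HIPP. The genotypes were separate under vehicle and under MTOB and overlapped under 4-Cl-HIPP. The averaged log2 change was -0.11 (SE 0.03, adjusted p = 0.0042, limma), and the largest of the 3 single changes was that under MTOB (-0.17, adjusted p = 0.021). The latter was 0.0512 to 0.0858 without wildtype MTOB replicate 1 or 2 or dKO MTOB replicate 2 or 3. Of the 31-base sequences of Hdac1, 28.1% occur in other genes and 24.2% in the pseudogene Hdac1-ps, which was listed at 0.323 to 3.59 TPM in wildtype and 0.329 to 2.62 TPM in dKO samples.

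With Hdac2 higher and Hdac1 lower, the ratio of Hdac2 to Hdac1 was 0.931 to 1.20 in wildtype and 1.22 to 1.43 in dKO samples, which did not overlap. The gap was narrow, from 1.20 to 1.22. The summed level of both deacetylases did overlap, at 185 to 200.4 TPM (median 192) in wildtype and 186 to 207 TPM (median 203) in dKO samples.

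**Figure D3:**
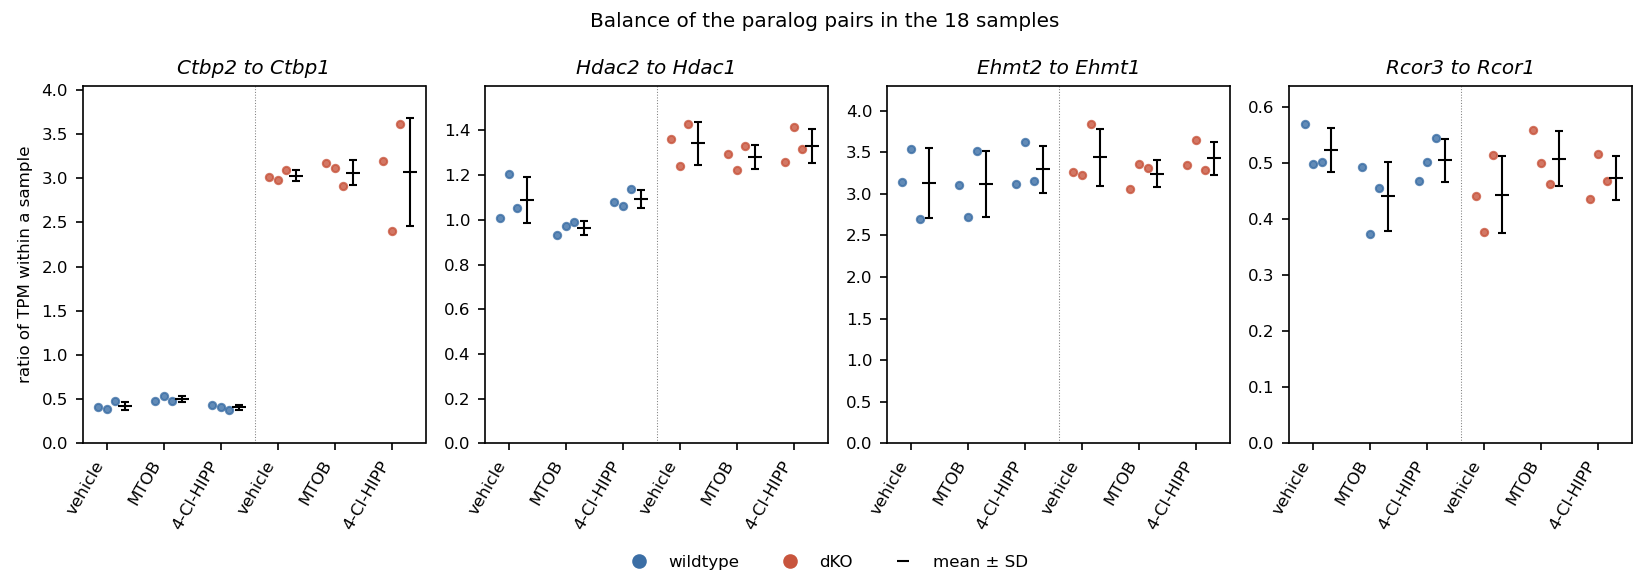
Ratio of TPM within each sample (linear axes from 0) for the 4 paralog pairs, with wildtype in blue, dKO in red and mean ± SD (n = 3) in black. Genotypes do not overlap for Ctbp2 to Ctbp1 and, by a narrow gap, for Hdac2 to Hdac1, and they overlap for Ehmt2 to Ehmt1 and Rcor3 to Rcor1.

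Of the lysine 9 methyltransferases, Ehmt2 was higher in dKO cells and Ehmt1 did not pass the threshold. Ehmt2 was 114, 113 and 111 TPM with vehicle, 104, 95.006 and 98.4 TPM with MTOB and 104, 118 and 107 TPM with 4-Cl-HIPP in wildtype cells. In dKO cells it was 124, 129 and 127 TPM with vehicle, 99.0, 114 and 103 TPM with MTOB and 121, 131 and 121 TPM with 4-Cl-HIPP. The genotypes were separate under vehicle and 4-Cl-HIPP, and overlapped under MTOB. The averaged log2 change was 0.14 (SE 0.03, adjusted p = 0.0043, limma), or 5.18% to 15.8% as a 95% interval on the scale of TPM + 1. No single treatment passed, with adjusted p-values of 0.084 under vehicle, 0.43 under MTOB and 0.062 under 4-Cl-HIPP. Leaving out dKO MTOB replicate 2 brought the vehicle value to 0.044 and the 4-Cl-HIPP value to 0.031. With only the compared groups fitted the vehicle value was 0.0193, and with a mean of at least 1 TPM the 4-Cl-HIPP value was 0.0474. The 4-Cl-HIPP value was also 0.045 without dKO MTOB replicate 1 and 0.023 without wildtype 4-Cl-HIPP replicate 2.

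Ehmt1 ran from 27.996 to 41.3 TPM (median 33.5) in wildtype and from 31.02 to 40.1 TPM (median 36.0) in dKO samples. Its averaged log2 change of 0.05 (SE 0.05, adjusted p = 0.55, limma) had a 95% interval of -4.002% to 12.2%. Wiz ran from 32.1 to 41.4 TPM (median 37.5) in wildtype and from 32.6 to 40.9 TPM (median 39.1) in dKO samples, with a log2 difference of 0.03 (SE 0.04, adjusted p = 0.63, limma) and a 95% interval of -3.46% to 8.60%. The ratio of Ehmt2 to Ehmt1 was 2.70 to 3.62 in wildtype and 3.06 to 3.84 in dKO samples.

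Within single treatments, the number of the 10 genes past the threshold between genotypes was 3 under vehicle (Ctbp1, Ctbp2 and Hdac2, against 10.7% of all genes), 4 under MTOB (these and Hdac1, against 11.2%) and 3 under 4-Cl-HIPP (Ctbp1, Ctbp2 and Hdac2, against 10.2%). In each treatment 5 of the 10 genes had samples that did not overlap between genotypes, against 26.1%, 23.5% and 25.2% of genes tested under vehicle, MTOB and 4-Cl-HIPP. Each time these included the edited genes Ctbp1 and Ctbp2. The partners among them were Rcor1, Hdac1 and Ehmt2 under vehicle, Rcor1, Hdac1 and Hdac2 under MTOB, and Hdac2, Ehmt1 and Ehmt2 under 4-Cl-HIPP. The 3 comparisons use different samples, but their tests share an estimate of the spread from all 18 samples. Clone and genotype coincide in each of them, so they are not independent repeats. Without wildtype MTOB replicate 1 the count under MTOB was 2. The summed TPM of the 8 partners was 508 ± 1.34 in wildtype vehicle and 524 ± 6.91 in dKO vehicle cells (SD, n = 3). With MTOB it was 484 ± 10.5 in wildtype and 492 ± 9.25 in dKO cells, where the samples overlapped. With 4-Cl-HIPP it was 497 ± 13.6 in wildtype and 527 ± 5.70 in dKO cells (SD, n = 3). In bulk RNA, fewer transcripts per cell and fewer cells that make them cannot be told apart.

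The inhibitors were then compared with vehicle within each genotype, in 4 comparisons of which each pair shares the vehicle samples of its genotype. MTOB called 0 of the 10 genes in wildtype cells (limma, against 7.26% of all genes, with 3 at an unadjusted p under 0.05) and 1 in dKO cells (against 6.58%, with 2 at an unadjusted p under 0.05). 4-Cl-HIPP called 0 of the 10 genes in wildtype (against 0.366%) and 0 in dKO cells (against 0.501%), and 0 had an unadjusted p under 0.05 in either genotype. The doses differed, 1.5 mM and 0.25 mM, so the values stand side by side without a comparison of the compounds. Inhibitor and vehicle samples did not overlap for 4 of the 10 genes with MTOB in wildtype and 3 in dKO cells. With 4-Cl-HIPP this held for 1 gene in each genotype. The share over all genes was not counted for these comparisons, so a lack of overlap is given below as description only.

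**Figure D4:**
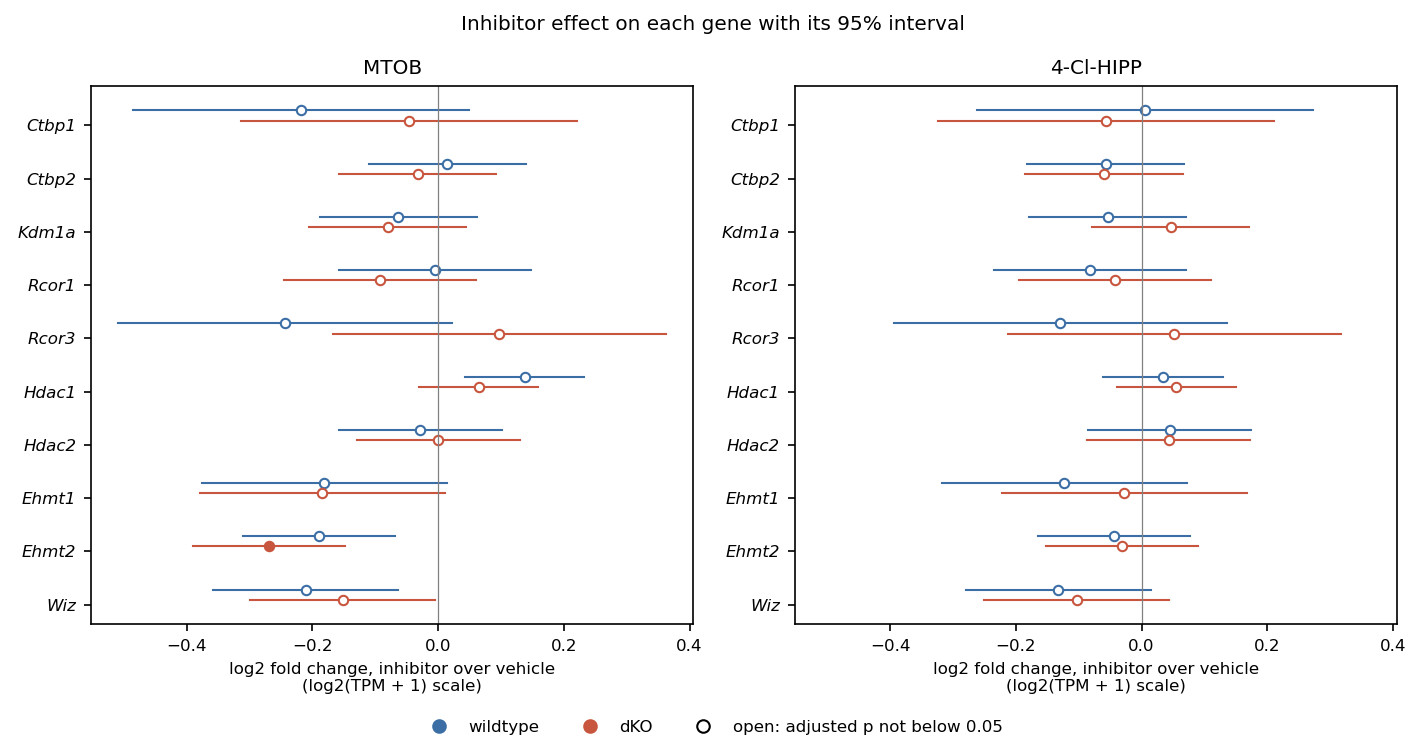
Log2 fold change of MTOB (left) and 4-Cl-HIPP (right) over vehicle on the log2(TPM + 1) scale with 95% intervals, in wildtype (blue) and dKO cells (red), filled where the adjusted p-value was below 0.05. Ehmt2 with MTOB in dKO cells is the single filled point, at -0.27, and every interval of 4-Cl-HIPP includes 0.

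The called gene was Ehmt2, which fell from 127 ± 2.61 to 105 ± 7.96 TPM (SD, n = 3) with MTOB in dKO cells, without overlap of the samples. The log2 change was -0.27 (SE 0.06, adjusted p = 0.0085, limma). A fit of these 2 groups alone gave an adjusted p = 0.105. In wildtype cells Ehmt2 was 113 ± 1.55 TPM with vehicle and 99.1 ± 4.51 TPM with MTOB (SD, n = 3), also without overlap, and the log2 change of -0.19 (SE 0.06) missed the threshold at an adjusted p = 0.057. The adjusted p-value for wildtype cells was 0.041 without wildtype 4-Cl-HIPP replicate 2, 0.041 without dKO MTOB replicate 1 and 0.029 without dKO MTOB replicate 2. With 4-Cl-HIPP the log2 fold change of Ehmt2 was -0.04 (SE 0.06) in wildtype and -0.03 (SE 0.06) in dKO cells.

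The partners of Ehmt2 in the G9a-GLP complex had values of the same sign with MTOB that did not pass. This sign was not particular to them, since the median log2 fold change of the 10 genes was -0.12 in wildtype and -0.06 in dKO cells. In wildtype cells Rcor3 (-0.24) and Ctbp1 (-0.22) lay further below 0 than Ehmt2, while Hdac1 (0.14) and Ctbp2 (0.01) lay above 0. Wiz was 40.7 ± 0.633 TPM with vehicle and 35.1 ± 2.77 TPM with MTOB in wildtype cells (SD, n = 3), a log2 change of -0.21 (SE 0.07, adjusted p = 0.087, limma). In dKO cells it was 40.8 ± 0.0487 and 36.8 ± 3.64 TPM (SD, n = 3), a log2 difference of -0.15 (SE 0.07, adjusted p = 0.25). The vehicle samples of Wiz in dKO cells spread far less than those of the other groups. Against the same vehicle samples Wiz was also lower without overlap with 4-Cl-HIPP, at 37.1 ± 2.23 TPM in wildtype and 38.0 ± 1.56 TPM in dKO cells (SD, n = 3). These log2 changes were -0.13 (SE 0.07, adjusted p = 0.68, limma) and -0.10 (SE 0.07, adjusted p = 0.75), so a lower value of Wiz was not particular to MTOB. Ehmt1 had a log2 change of -0.18 in wildtype and -0.18 in dKO cells (SE 0.09 each, adjusted p = 0.32 and 0.30, limma). The wildtype value of Wiz passed without dKO MTOB replicate 1, at an adjusted p = 0.029.

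Hdac1 was the gene of the 10 with the highest log2 fold change with MTOB in wildtype cells, 0.14 (SE 0.04, adjusted p = 0.080, limma), as its TPM went from 89.9 ± 3.51 to 99.0 ± 2.30 (SD, n = 3) without overlap. It passed without dKO 4-Cl-HIPP replicate 2, at an adjusted p = 0.048. In dKO cells the value was 0.06 (SE 0.04, adjusted p = 0.50). Ctbp1 in wildtype cells was 218 ± 18.1 TPM with vehicle, 187 ± 15.2 TPM with MTOB and 219 ± 16.1 TPM with 4-Cl-HIPP (SD, n = 3), and the log2 fold change with MTOB was -0.22 (SE 0.13, adjusted p = 0.40, limma). Ctbp2 had a log2 difference of 0.01 (SE 0.06) with MTOB and -0.06 (SE 0.06) with 4-Cl-HIPP in wildtype cells. The RNA of both targets of the inhibitors thus did not pass the test with either inhibitor. The Ctbp1 samples of wildtype cells did not overlap, at 170.1 to 199 TPM with MTOB and 204 to 238 TPM with vehicle. They are among the 4 of 10 genes without overlap in this comparison, and this is not read as a change of Ctbp1.

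The difference of the inhibitor effects between genotypes was tested as an interaction. For MTOB 0 of the 10 genes passed (limma, against 0.0916% of all genes) and 0 had an unadjusted p under 0.05. For 4-Cl-HIPP 0 of the 10 genes passed (limma, against 0% of all genes) and 0 had an unadjusted p under 0.05. The difference farthest from 0 was that of Rcor3 with MTOB, with a log2 change of -0.24 in wildtype and 0.10 in dKO cells and a difference of -0.34 (95% interval -0.72 to 0.03, adjusted p = 0.75). For Ehmt2 the MTOB effects differed by 0.08 (95% interval -0.09 to 0.25, adjusted p = 0.905, limma).

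Genes that work beside the 10 were taken from 6 lists. Of 13 other subunits reported in CTBP, CoREST and G9a-GLP complexes, 2 were higher and 1 was lower in dKO cells averaged over treatments (limma, against 13.1% and 9.27% of all genes), with a median log2 fold change of -0.01. Zfp217, a zinc finger protein that binds CTBPs and CoREST, ran from 16.8 to 20.1 TPM in wildtype and from 26.0 to 29.7 TPM in dKO samples, a log2 difference of 0.62 (SE 0.03, adjusted p = 9.2e-11, limma). Zfp516, a zinc finger protein also found with CTBPs, ran from 2.27 to 7.34 TPM in wildtype and was at 0 to 0.239 TPM in dKO samples. Neither gene overlapped between genotypes. The log2 fold change of Zfp516 was -2.14 (SE 0.13, adjusted p = 4.0e-09, limma), and since its dKO values were near 0 it moved with the pseudocount, from -4.71 to -0.78. Gse1, a subunit of CoREST complexes, ran from 14.4 to 21.4 TPM in wildtype and from 18.8 to 22.9 TPM in dKO samples, a log2 change of 0.22 (SE 0.04, adjusted p = 0.0017, limma).

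Of 18 transcription factors and cofactors known to recruit CTBPs, 11 were listed and tested. In dKO cells 5 of these were higher and 0 were lower (limma, against 13.1% and 9.27% of all genes, with 7 at an unadjusted p under 0.05), and the median log2 fold change was 0.15. Zeb2, a repressor of the ZEB family, ran from 21.7 to 36.5 TPM in wildtype and from 50.3 to 93.8 TPM in dKO samples, without overlap, a log2 difference of 1.06 (SE 0.10, adjusted p = 1.3e-06, limma). Ikzf1, the lymphoid and myeloid factor Ikaros, ran from 46.2 to 56.1 TPM in wildtype and from 52.5 to 69.2 TPM in dKO samples, with a log2 change of 0.30 (SE 0.04). Nrip1, a nuclear receptor corepressor, had a log2 difference of 0.37 (SE 0.07), and Tgif1, a homeodomain repressor, one of 0.30 (SE 0.06). Klf8, named after its values were seen, was low at 1.05 to 4.93 TPM in wildtype and 2.31 to 11.8 TPM in dKO samples, with a log2 change of 0.77 (SE 0.25, adjusted p = 0.038, limma).

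Of 27 subunits of SIN3, NuRD and other complexes that hold HDAC1 and HDAC2 or HDAC3 without CTBPs, 3 were higher and 3 lower (against 13.1% and 9.27% of all genes), with a median log2 fold change of -0.0016. Mta3, a NuRD subunit, ran from 19.8 to 29.3 TPM in wildtype and from 25.9 to 38.2 TPM in dKO samples, a log2 difference of 0.38 (SE 0.05, adjusted p = 6.9e-05, limma). The histone-binding subunit Rbbp7 fell by 0.09 on the log2 scale (SE 0.02), and Arid4b of the SIN3 complex rose by 0.15 (SE 0.05, adjusted p = 0.039), a call kept in 13 of 27 alternatives.

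Of 17 other enzymes and readers of lysine 9 and lysine 4 of histone H3, 2 were higher and 4 lower (against 13.1% and 9.27% of all genes), with a median log2 fold change of 0.01. Suv39h1, which writes the trimethyl mark on lysine 9, ran from 52.5 to 63.5 TPM in wildtype and from 63.2 to 79.2 TPM in dKO samples, a log2 difference of 0.33 (SE 0.03, adjusted p = 5.2e-07, limma). Cbx1, a reader of that mark, fell by 0.18 (SE 0.03, adjusted p = 0.00035). Also lower were Suv39h2 (log2 change -0.16, SE 0.05, adjusted p = 0.021, limma) and Cbx3 (-0.10, SE 0.03, adjusted p = 0.033), both named after their values were seen. The lysine 9 demethylases went opposite ways, with Kdm4b lower by a log2 change of -0.32 (SE 0.07) and Kdm4c higher by 0.19 (SE 0.05). Of 9 other histone deacetylases 1 was higher, Hdac5 with a log2 difference of 0.13 (SE 0.04, adjusted p = 0.036, limma), kept in 13 of 27 alternatives, and 0 were lower (3 at an unadjusted p under 0.05), against the same 13.1% and 9.27%. Phgdh and Grhpr, dehydrogenases of the same family as CTBPs, gave 0 calls (limma, 0 at an unadjusted p under 0.05, against 22.4% of all genes called). Phgdh ran from 289 to 366 TPM in wildtype and from 302 to 365 TPM in dKO samples, and Grhpr from 9.93 to 16.7 and from 9.26 to 15.0 TPM.

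**Figure D5:**
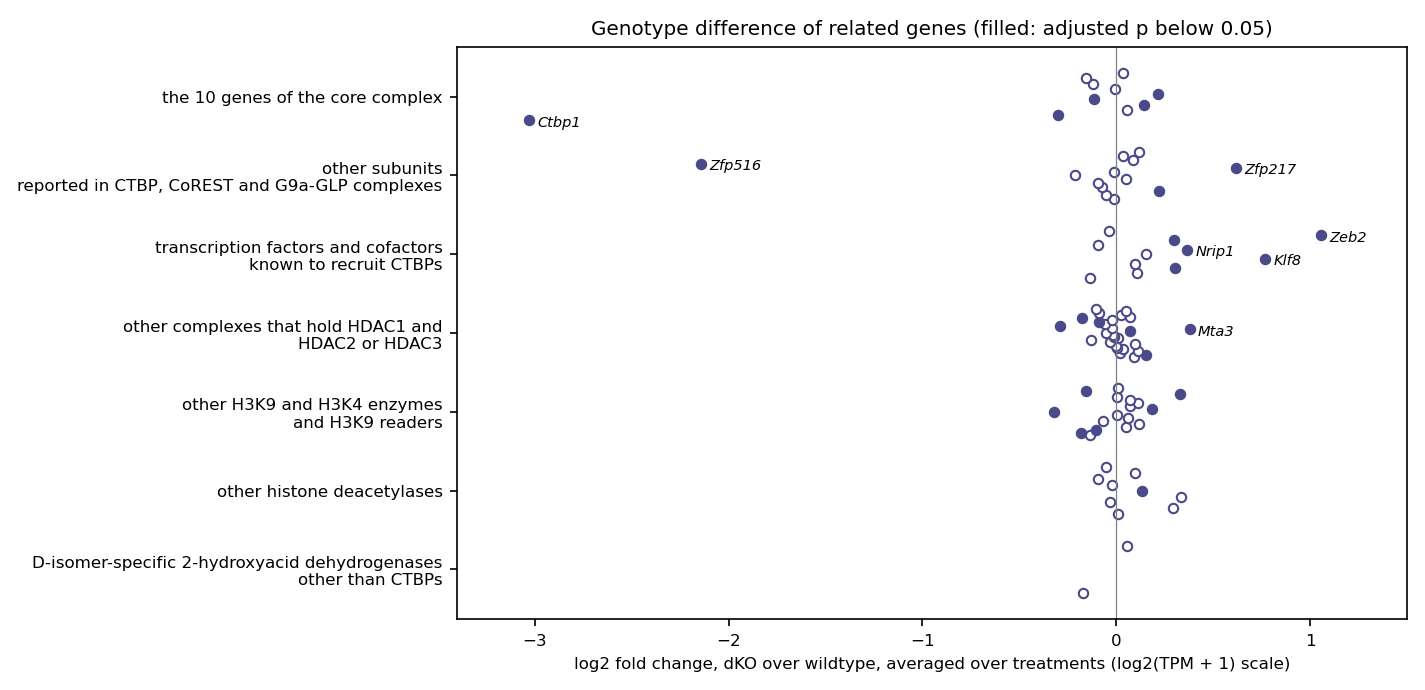
Log2 fold change of dKO over wildtype averaged over treatments (log2(TPM + 1) scale), 1 point a gene, for the 10 genes of the core complex and the 6 lists of related genes, filled where the adjusted p-value was below 0.05. Most points lie close to 0, with Ctbp1 and Zfp516 far to the left and Zeb2, Klf8 and Zfp217 farthest to the right.

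With MTOB, the related genes that passed were lower in all but 1 case. In wildtype cells 4 of the 17 histone H3 enzymes and readers were lower, namely Kdm5c at -0.27, Kdm5a at -0.35, Kdm3b at -0.23 and Suv39h1 at -0.18, as were Suds3 (-0.22) and Mta1 (-0.17) of the SIN3 and NuRD complexes and Hdac9 (-0.42, all log2 fold changes past an adjusted p-value of 0.05, limma). Gse1 was higher in wildtype cells, with 0.35 (SE 0.08, adjusted p = 0.0105, against 3.8% of all genes higher). In dKO cells Cbx5 (-0.32), Suv39h1 (-0.21), Kdm3b (-0.25), Chd4 (-0.21) and Mta1 (-0.18) were lower. The background for a lower call was 3.46% of all genes in wildtype and 3.54% in dKO cells. Suv39h1, Kdm3b and Mta1 passed in both genotypes. With 4-Cl-HIPP 0 genes of the 6 lists passed in either genotype (limma, with 0 to 3 genes of each list at an unadjusted p under 0.05). Kdm5a, Kdm3b, Suds3, Suv39h1 with MTOB and Mta1 in wildtype cells were named after their values were seen.

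The genes whose log2(TPM + 1) was most like that of Ctbp1 over the 18 samples were Antxr1 (Pearson r of 0.996), Atp1b3 (0.995) and Car2 (0.993), and those most opposed were S100a11 (-0.995), Anxa2 (-0.995) and Padi4 (-0.995), among 11761 genes with a mean of at least 1 TPM. These are genes that differ between the genotypes with little spread. Atp1b3, a subunit of the sodium pump, was at 1156 to 1260 TPM in wildtype and 242 to 268 TPM in dKO samples, and S100a11, a calcium-binding protein, was at 155 to 193 and 1133 to 1285 TPM. For Ctbp2 the likeness was highest with Hlx (0.954), Fkbp1a (0.952) and Pebp1 (0.947) and lowest with Adcy7 (-0.963), Xpr1 (-0.959) and Dag1 (-0.954). The samples share their genotype and clone, so the coefficients describe these samples.

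Of the genes beside the edited loci, none that was tested passed the threshold as lower (limma). Next to Ctbp1, Maea, 60370 bases away, was at 69.5 to 87.4 TPM in wildtype and 66.5 to 82.8 TPM in dKO samples (log2 fold change -0.12, adjusted p = 0.057, limma), and Uvssa had a log2 change of -0.06 (adjusted p = 0.68). Spon2, 22981 bases away, was higher in dKO cells (log2 fold change 0.43, SE 0.08, adjusted p = 0.00047) at values of at most 0.663 TPM, and Slc5a1 was at most 0.0649 TPM and was not tested. Next to Ctbp2, Zranb1, 1160 bases away, was at 12.0 to 15.4 TPM in wildtype and 12.2 to 15.2 TPM in dKO samples (log2 fold change -0.05, adjusted p = 0.62). The other neighbours of Ctbp2, namely 1500002F19Rik, Edrf1 and Uros, had adjusted p-values of 0.84, 0.12 and 0.82.

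Of 12 macrophage markers, 10 reached 5 TPM, among them the defining Cd68, Csf1r, Lyz2 and Spi1, while Mrc1 and Cd86 were at or near 0. Of the 12 markers, 4 did not overlap between genotypes, against 5.26% of genes tested. These were Adgre1 (F4/80) at 24.6 to 107 TPM in wildtype and 6.70 to 13.7 TPM in dKO samples, Cd14 at 370.1 to 857 and 91.6 to 329 TPM, Itgam at 11.3 to 21.0 and 34.6 to 65.3 TPM, and Lgals3 at 172 to 207 and 280.5 to 325 TPM. Their part in the changes of the complex genes was not tested. The summed level of the 12 markers was 2861 to 3681 TPM in wildtype and 2700.0 to 3251 TPM in dKO samples. Markers of T, B, neutrophil, fibroblast and epithelial cells (3 each, of which 1 each was listed) were at or near 0, the highest being Cd3d with at most 2.07 TPM in a wildtype sample. Replicates of a group correlated with a Pearson r of 0.983 to 0.987 across genes, and 0 pairs of samples held identical values.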

How the data were processed

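RNA of 18 J774.1 samples in 6 groups of 3 was measured by unstranded paired-end sequencing. According to the methods, the authors quantified reads with Salmon 1.9.0 on the Gencode M28 transcripts of GRCm39 and summarised them per gene. The authors deposited a single table for 18204 genes, with TPM (headed as scaled TPM) per sample (each sample summing to 999766 to 999897) and a mean normalized count per gene, a signal from DESeq2 1.44.0. The authors' own log2 fold changes and adjusted p-values in the table were not used. TPM keep no depth, so the depth of each sample is unknown.

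Here, log2(TPM + 1) of the 16383 genes above the 10th percentile of the mean normalized count (0.222) was fitted with a mean for each of the 6 groups, on all 18 samples and with variances moderated along their trend with the mean normalized count (limma 3.58.1, R 4.3.3, 12 residual degrees of freedom before moderation). The Benjamini-Hochberg adjustment of p-values ran across the tested genes, comparison by comparison, and calls were made below 0.05. Averaged genotype changes are the mean of the 3 within-treatment differences. A fold change on this scale understates that of low genes. The procedure was tested on simulated data, in which every gene had the same spread beyond counting error, unlike real genes. Counting error was taken as 1 over the square root of the mean normalized count. Exons, overlaps and 31-base sequences came from GRCm39 with Gencode vM39, a later release than that of the authors. Figures used matplotlib in Python.

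The members and gene lists, written from general knowledge, were chosen with earlier results of these data known. Named genes were the 10 members, for each list at most 4 called between genotypes and at most 2 per inhibitor by smallest p, Phgdh and Grhpr, the 3 genes most and least like Ctbp1 and Ctbp2, and the 2 nearest listed genes on each side of both loci. A gene that this rule selects is not reported here. Alternatives were another pseudocount (0.1 or 5), no filter or a mean of at least 1 TPM, no variance trend, the compared groups alone, the replicate number as a block, 2 scalings, and each sample left out. The background of genes whose mean normalized count reached 100 was chosen after seeing the data. Protein sequences were planned and are not analysed here.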

Additional observations from a re-analysis of the deposited data

How the results depend on the processing

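Over the 27 alternatives, the 5 calls among the 10 complex genes averaged over treatments were kept, and the count ranged from 5 to 7 as Rcor1 and Rcor3 passed under some. Of 2700 values of these genes over all comparisons and alternatives, 432 belonged to calls, of which 391 were kept and 41 lost. Of the others 27 gained a call, 23 moved by more than their error and 91 changed sign without a call, and 0 calls reversed. Under MTOB the count between genotypes went from 4 to 2 when only the compared groups were fitted. In wildtype cells the count with MTOB went from 0 to 1 with a mean of at least 1 TPM and to 2 after median centring. In dKO cells it went from 1 to 0 when only the compared groups were fitted. With each sample left out in turn, the count under MTOB between genotypes was 2 to 4 and that with MTOB in wildtype cells 0 to 2. The cause was not tested.

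Replicate numbers did not pair the samples: residuals of same-numbered samples of different groups correlated at -0.0866 to 0.0895 over 45 pairs. With the replicate number as a block, the count with MTOB in wildtype cells was 1 (Ehmt2, adjusted p = 0.048), and no other count of the 10 genes moved by over 1.5 times.

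With only the compared groups fitted, all-gene counts fell from 1078 to 305 (MTOB in dKO), from 1189 to 699 (MTOB in wildtype), from 82 to 9 (4-Cl-HIPP in dKO) and from 1829 to 995 (genotype under MTOB). The count for 4-Cl-HIPP in wildtype fell from 60 to 19 without wildtype vehicle replicate 3, and that of the MTOB interaction from 15 to 6 without the variance trend. Centring samples on their median moved the share of higher calls under vehicle from 65.3% to 47.5%, under MTOB from 62.5% to 50.4% and under 4-Cl-HIPP from 64.5% to 53.9%, and for 4-Cl-HIPP from 88.3% to 63.0% in wildtype and from 80.5% to 57.7% in dKO cells. With 3 samples a group and unknown depth, differences of a few percent in single treatments were at the limit of the design.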
